A study of Mus musculus with 13 samples.

Results

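Long-term hematopoietic stem cells (LTHSC) of c-Cbl -/- mice were set against those of c-Cbl +/+ mice, with 1 Illumina bead array per genotype, 2 of the 13 arrays of the series. Both arrays were taken by their labelled genotype and cell type. The -/- animals carried no wild-type allele of c-Cbl, the +/+ animals were controls, and all were of C57BL/6 background. The remaining LTHSC array, of the A/- genotype, was normalized with this pair, is given beside it, and shares its +/+ array. What the allele A carries is not said in the labels. The cells of all 3 arrays were sorted by 1 surface phenotype, CD34- Flt3- Lineage- c-Kit+ Sca1+. The labels give neither the age and sex of the mice nor the number of mice behind an array. With 1 array a side no difference can be tested, so every value below describes these arrays.

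The product of Cbl is an E3 ubiquitin ligase that is recruited to activated receptor and cytosolic tyrosine kinases, marks them for degradation and so limits their signalling. In stem cells the receptors it acts on include Kit and the thrombopoietin receptor, whose signals run through STAT5, the RAS-ERK cascade and PI3 kinase. LTHSC are the rarest and most primitive cells of the marrow hierarchy, from which the erythroid, megakaryocytic, myeloid and lymphoid lineages descend.

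Genes of the red cell lineage had the lowest median difference of the 33 gene lists examined, except where detection on both arrays was required. The promoters of 4 of them that were low in -/- are shown here, chosen from those that hold the letters of a GATA site. The sequences are the 250 bases before the annotated RefSeq start in GRCm38.p6, 5′ to 3′ on the gene's strand, and capitals mark matches to the letters AGATAA or AGATAG, and also TGATAA or TGATAG, on either strand, which GATA factors recognise.
Ermap, chr4:119189996-119190245, - strand: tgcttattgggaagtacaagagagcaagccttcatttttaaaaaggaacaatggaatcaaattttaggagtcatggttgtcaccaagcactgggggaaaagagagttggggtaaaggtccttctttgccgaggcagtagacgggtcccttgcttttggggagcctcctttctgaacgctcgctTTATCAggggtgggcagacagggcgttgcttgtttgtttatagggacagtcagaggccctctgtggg
Klf1, chr8:84901732-84901981, + strand: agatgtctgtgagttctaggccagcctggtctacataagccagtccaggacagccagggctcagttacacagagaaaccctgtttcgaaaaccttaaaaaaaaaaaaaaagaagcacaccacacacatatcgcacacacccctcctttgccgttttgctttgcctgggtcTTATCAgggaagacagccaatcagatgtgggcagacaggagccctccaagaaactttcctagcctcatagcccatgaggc
Hba-a1, chr11:32283422-32283671, + strand: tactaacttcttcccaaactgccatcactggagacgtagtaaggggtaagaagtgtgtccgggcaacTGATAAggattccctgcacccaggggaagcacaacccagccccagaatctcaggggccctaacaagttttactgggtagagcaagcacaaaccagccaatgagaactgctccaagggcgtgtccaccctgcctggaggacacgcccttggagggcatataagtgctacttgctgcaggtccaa
Kel, chr6:41704326-41704575, - strand: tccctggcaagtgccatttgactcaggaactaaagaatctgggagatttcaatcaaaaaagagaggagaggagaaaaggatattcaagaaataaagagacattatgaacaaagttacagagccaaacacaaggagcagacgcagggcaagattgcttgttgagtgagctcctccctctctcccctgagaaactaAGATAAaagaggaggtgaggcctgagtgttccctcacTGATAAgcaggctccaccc
Counted as at least 2-fold lower in -/- were 13 erythroid genes, a size of difference reached by 1.53% of all detected features. When genes detected in +/+ alone were set at the least fold their signals allow, 12 remained, without Trim10, whose window held a match. Of the 13 genes 11 had such a window and 6 of these, or 54.5%, held a match. Those of Hbb-bt, Sptb, Aqp1, Tspo2 and Blvrb, lower in -/- as well, held none. The share was 30.9% of 94 windows of features lower in -/-, 17.3% of 7969 windows of detected features and 27.1% of 27025 windows in all. Matches to CCACACCC or CCGCACCC, and also to CCACGCCC or CCGCGCCC, on either strand, letters of the kind that KLF factors bind, were in 1 of the 11 windows (9.09%) and in 19.2% of the windows of detected features. A match is a description of the letters and not evidence of binding.

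Of the 45281 probes on each array 38.0% were detected in -/-, 37.8% in A/- and 36.3% in +/+, at a detection p-value under 0.01. The mean signal before normalization was 254.71 in -/-, 248.95 in A/- and 260.23 in +/+, while the 10 arrays of other cell types were brighter, at 744.09 to 1149.60. Levels are given as normalized log2 signals, on which a difference of 1 is a 2-fold change and where the lowest detected signal was 4.80 in -/-, 4.81 in A/- and 4.90 in +/+. The Cbl probe, at 4.48 in -/-, 4.52 in A/- and 4.60 in +/+, was detected on none of these arrays and cannot check the genotype labels. The Y-linked Eif2s3y was at 8.66 in -/-, 8.83 in A/- and 4.27 in +/+, where it was not detected, so that it was at least 13.5-fold higher in -/-, and a second, dim probe differed by 0.26. The Y-linked Kdm5d was detected on all 3 arrays, at 6.09, 5.91 and 5.80 in -/-, A/- and +/+. Uty, also Y-linked, was dim, at 4.51 and not detected in -/-, and detected at 4.87 in A/- and 4.99 in +/+. The +/+ array thus stands apart from the other two in Eif2s3y and not in Kdm5d or Uty. Xist, the long RNA of X inactivation, was at 10.33, 9.59 and 9.35 on the same arrays by its brightest probe, and the differences -/- minus +/+ of its 4 detected probes ran between -0.48 and 1.23.

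Some marks of stem cells were highest on the LTHSC arrays and others were not. All LTHSC arrays were dimmer before normalization than all arrays of other cell types. In a comparison of levels between them, cell type and array brightness cannot be told apart. When all 13 arrays were normalized together, 11 of 22 detected stem cell transcription factor genes were brighter on each of the 3 LTHSC arrays than on any of the 5 other +/+ arrays, against 17.9% of 10929 detected features. Among them were Nkx2-3 (12.44, 12.73 and 12.20 in -/-, A/- and +/+), which was at most 10.83 on the other +/+ arrays, and the imprinted gene Ndn (10.62, 10.90 and 10.93), at most 8.87 elsewhere. Of 20 detected surface and adhesion genes 6 were (30.0%). Esam was at 12.59, 12.35 and 12.48 on the LTHSC arrays and at most 11.65 elsewhere, but Slamf1, Vwf, Itga2b, Tek and Cd9 were brighter on the +/+ array of short-term stem cells. Procr, the protein C receptor that marks stem cells, was detected on 1 of the 3 LTHSC arrays, +/+, and at a level near the limit (4.45, 4.65 and 4.96 in the 3-array normalization). Normalized with all 13 arrays Procr was at 4.95, 5.25 and 5.68 in -/-, A/- and +/+, and at 5.52 to 6.67 on the other +/+ arrays. Cd34, whose product the sort selected against, was clearly detected at 8.52, 8.46 and 8.35, and neither Flt3 probe was detected. In the 13-array normalization Cd34 was at 10.21, 10.14 and 10.01. On the other +/+ arrays it was at 6.99 to 10.55, with 9.20 in short-term stem cells and the highest value in multipotent progenitors.

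In total 12352 features were detected on at least 1 of the 2 arrays and 11112 on both. A feature is the brightest probe of a gene, or a probe without a gene symbol. Of the 12352, 51 were at least 2-fold higher in -/- (0.413%) and 189 at least 2-fold lower (1.53%), together 1.94%. Among those detected on both arrays 35 were higher (0.315%) and 123 lower (1.11%). Normalized with all 13 arrays the counts were 157 higher and 301 lower, so that 34.3% of the calls were on the higher side, against 21.2% in the 3-array normalization. The median difference over all features was 0.02 and the median size of a difference 0.17. For the 3310 genes with 2 probes detected on both arrays, the differences of these probes lay 0.17 apart in the median and under 0.62 apart in 95% of genes. This is the only repeat measure within the pair, and it is technical, since both probes read the same RNA. Where the brightest probe was at least 2-fold lower the second probe was on the lower side in 15 of 16 genes, and at least 2-fold lower in 8. Where it was at least 2-fold higher the second was on the higher side in 4 of 4 genes and at least 2-fold in 1.

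**Figure D1:**
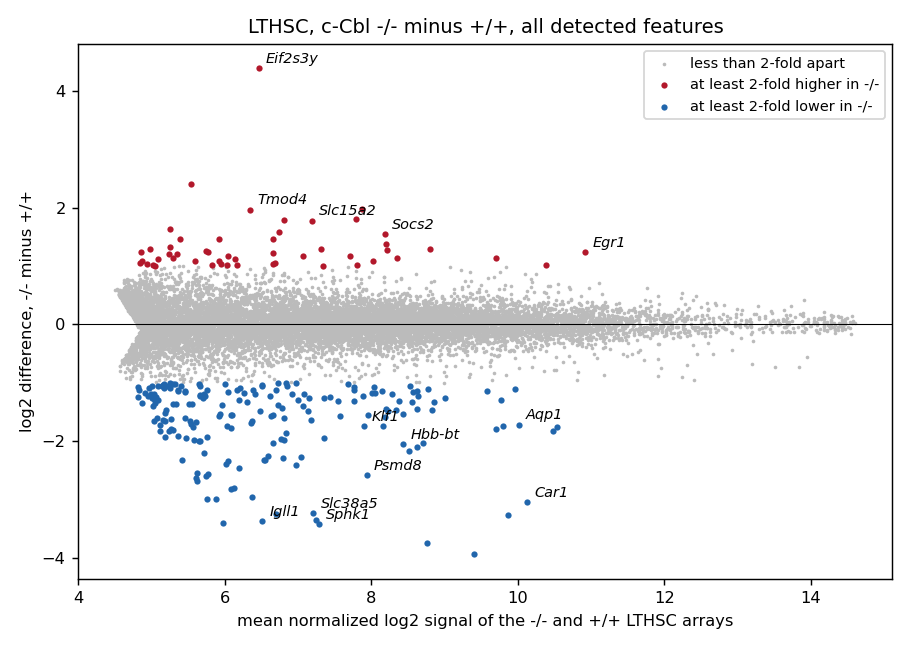
Log2 difference, -/- minus +/+, against the mean normalized log2 signal of both LTHSC arrays, 1 point for each of 12352 features. Red points are the 51 features at least 2-fold higher in -/- and blue points the 189 at least 2-fold lower. The lower side holds more points beyond 4-fold, 39 against 2, with Sphk1 at -3.43 and Car1 at -3.05, while the point furthest from 0 is the Y-linked Eif2s3y at 4.39 on the higher side.

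Among erythroid genes, the regulator Klf1, globins and several membrane proteins were at least 2-fold lower in -/-, while Gata1, Gfi1b, Tal1 and the receptor gene Epor were not. Of 27 detected genes of the erythroid list 13 were at least 2-fold lower and 0 at least 2-fold higher, against 1.53% and 0.413% of all features, and 25 were on the lower side. The list's median difference was -0.94, or -0.59 when genes detected on +/+ alone are set at their bounds, against 0.02 over all features. With bounds 12 genes stayed at least 2-fold lower. A gene that passed detection only through +/+ had to be lower in -/-, as holds for Ermap, Ank1, Sptb, Tspo2 and Trim10 among the 13. Of the 27 genes 21 were detected in -/- too, with a median of -0.535. Those at least 2-fold lower among them were Car1, Hbb-bt, Klf1, Hba-a1, Aqp1, Kel, Blvrb and Rhag. Of all features detected on both arrays 1.11% were at least 2-fold lower. Over all 31 members on the array, without a detection filter, the median was -0.59, and over all alternative settings it lay between -1.38 and -0.51. In such sorted cells, fewer cells of a type and less RNA per cell cannot be told apart.

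Klf1, the transcription factor that switches on the adult globin programme, was at 7.03 in -/-, 6.07 in A/- and 8.78 in +/+, a difference of -1.75 between -/- and +/+. Gata1, the master regulator of the lineage, was at 5.52, 5.01 and 6.11 in -/-, A/- and +/+ (-0.59, and -0.60 by a second probe). The erythropoietin receptor gene Epor was at 5.58, 5.38 and 6.51 (-0.93). By their brightest probes all 3 were highest in +/+ and lowest in A/-. The second Gata1 probe was lowest in -/-, where it was not detected (4.71, 4.84 and 5.31 in -/-, A/- and +/+). Tal1 and Gfi1b, which stem cells use as well, differed by only 0.18 and -0.28.

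Car1, which encodes the carbonic anhydrase abundant in red cells, had the largest difference of the list, at 8.61 in -/-, 7.92 in A/- and 11.66 in +/+, an 8.28-fold lower signal in -/- than in +/+. Aqp1, the water channel of the red cell membrane, was at 9.15, 9.01 and 10.88 (-1.72, with further probes at -1.71 and -1.64). Blvrb, a reductase of haem breakdown, was at 9.12, 9.31 and 10.42 (-1.30). In these genes -/- and A/- lay close together and +/+ apart. The blood group gene Ermap was at 4.49 and not detected in -/-, at 4.63 and not detected in A/-, and at 7.05 in +/+, at least 4.76-fold lower in -/-. The membrane skeleton genes Ank1 (ankyrin) and Sptb (β-spectrin) had bounds of 3.60-fold and 3.14-fold on the lower side in -/-, and were not detected in A/- either. Kel, the Kell blood group protein gene, was at 5.30, 4.77 and 6.86 (-1.56). Tspo2, a transporter of late erythroid cells, was at least 2.94-fold lower, Rhag, of the Rh complex, was at 4.81, 4.43 and 5.83 (-1.03), and Trim10 was at least 1.502-fold lower. In -/- Rhag was near the lowest detected signal, 4.80, and its further probes were not detected there.

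The globins had another order. The β-globin gene Hbb-bt was at 7.40 in -/-, 10.25 in A/- and 9.46 in +/+, a difference of -2.06 between -/- and +/+, and its 3 further probes ranged from -2.53 to -2.11. Hbb-bs was at 7.44, 10.37 and 9.60 (-2.16, 5 further probes between -2.998 and -1.51), and the α-globin gene Hba-a1 at 7.29, 9.69 and 9.04 (-1.74). The globins were lowest in -/- and highest in A/-. The β-globin genes are near-identical copies, as are the α-globin genes, so their probes may read each other's RNA. Ctse, an aspartic protease of red cell precursors, had -0.43 by its brightest probe but -2.43 and -1.75 by its other 2. Heme and iron genes were closer, with Urod at -0.27, Fech at -0.41 and Tfrc, the transferrin receptor, at -0.54. Further detected Fech probes were at 0.04 and 0.19, and Slc25a37, of the same list, was on the higher side at 0.15.

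**Figure D2:**
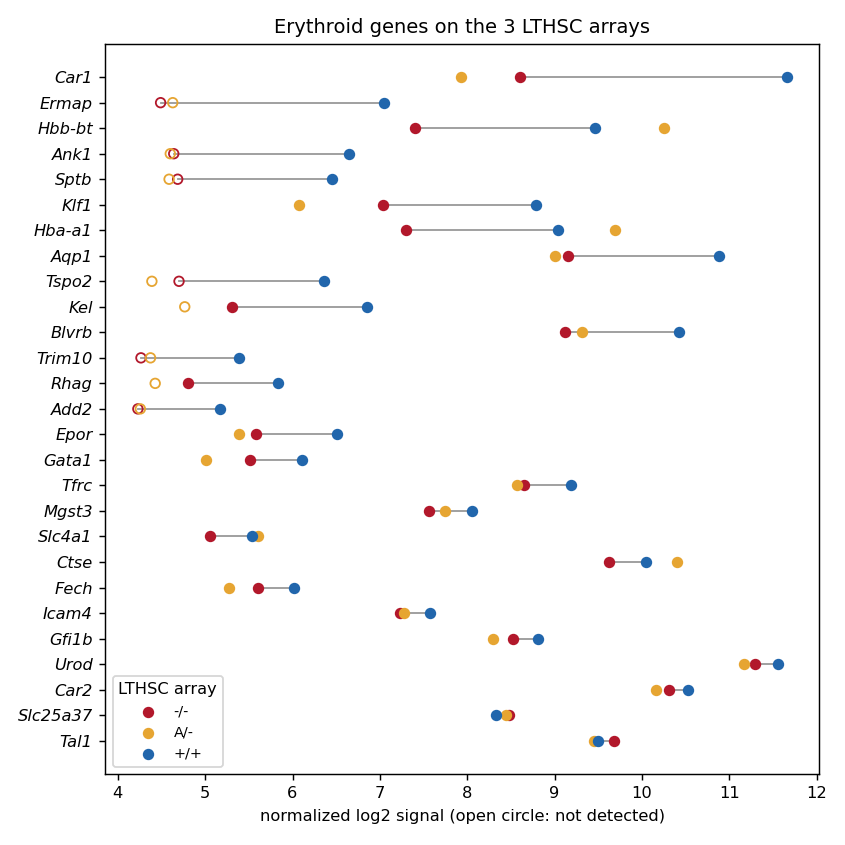
Normalized log2 signal of the 27 detected erythroid genes on the 3 LTHSC arrays, ordered by the difference -/- minus +/+, with open circles where a probe was not detected. Grey lines join -/- and +/+. In most genes the +/+ array lies to the right of both mutant arrays, as in Car1 at 8.61, 7.92 and 11.66, while the globins are highest in A/-.

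Of the 13 erythroid genes 12 had their brightest +/+ signal outside LTHSC in megakaryocyte-erythroid progenitors (MEP), and Hbb-bt in multipotent progenitors, when the 10 other arrays were normalized by themselves. MEP was the brightest for 36.2% of all features. On those 10 arrays Klf1 had a mean difference A/- minus +/+ of 0.70 over 5 populations, Car1 of 0.17 and Sptb of 1.14, on the higher side, against -0.65 for Hbb-bt and -0.88 for Hba-a1. The lower signal of Klf1, Car1 and Sptb in -/- LTHSC was thus not matched in the A/- cells of the other populations.

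Several genes outside the list were likewise lower on both mutant LTHSC arrays than on +/+ and brightest in MEP among the other populations. Sphk1, the kinase that makes sphingosine 1-phosphate, had the largest difference among genes detected on both arrays, at 5.58 in -/-, 5.71 in A/- and 9.001 in +/+ (-3.43, a 10.7-fold lower signal). The glutamine transporter gene Slc38a5 was at 5.59, 5.34 and 8.83 (-3.23). In +/+ MEP these 2 genes reached 14.34 and 14.04. Col5a1, a fibrillar collagen chain, was at least 6.64-fold lower in -/-, Crip2, a LIM protein gene, at least 4.06-fold, and Fhdc1, a formin, at least 3.80-fold. Trib2, a pseudokinase gene, was at 5.78, 6.61 and 7.74 (-1.96). Upk3bl, at 5.08, 5.01 and 8.32 (-3.24), and Cd276, an immune checkpoint ligand gene at least 3.44-fold lower, were low in both mutants too but brightest in other populations. Of the 27 genes with the largest lower differences or bounds 13 were brightest in MEP, but over all lower features the share was 38.2%, near the 36.2% of all features.

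Genes of the surrogate light chain, which pairs with the heavy chain in the pre-B cell receptor, and the related Vpreb3 were low in both mutants. Igll1 was at 4.83 in -/-, 5.17 in A/- and 8.20 in +/+, a difference of -3.38. Its signal in -/- was near the lowest detected there, 4.80, and the difference was -2.40 with an offset of 50 in the normalization. Vpreb1 was at 5.46, 5.88 and 7.71 (-2.25), and Vpreb3 at 4.59, 5.68 and 6.58, not detected in -/- and at least 3.44-fold lower there. Dntt, the enzyme that adds bases at V(D)J joints, was at least 2.19-fold lower in -/- than in +/+ and highest in A/- (4.79, 6.24 and 5.93). Of 15 detected genes of the lymphoid priming list 4 were at least 2-fold lower, against 1.53% of all features, and 0 higher. The median was -0.29, but -0.12 over all 25 members on the array and -0.093 over those detected on both arrays. All 4 were brightest in +/+ multipotent progenitors outside LTHSC. Other members of the list were little apart, with Ikzf1 at -0.05, Cd27 at 0.11 and Notch1 at -0.29. On the arrays outside LTHSC Igll1 differed between A/- and +/+ by -2.04 in the mean over 5 populations, and Vpreb1 by -1.17.

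Neutrophil genes were on the lower side in -/- as well, by smaller amounts. Of 23 detected mature neutrophil genes 1 was at least 2-fold lower, against 1.53% of all features, and 20 were on the lower side. The list's median was -0.46, against 0.02 over all features. The gene at least 2-fold lower was Ffar2, which encodes a fatty acid receptor, at 8.10 in -/-, 9.40 in A/- and 9.57 in +/+. The granule genes Camp (10.34, 11.35 and 11.29) and Ltf (10.75, 11.97 and 11.62) and the calprotectin subunit gene S100a8 (13.67, 14.28 and 14.23) were lowest in -/- and slightly higher in A/- than in +/+. The summed normalized signal of the neutrophil list was 28349 in -/-, 51117 in A/- and 42984 in +/+. That of the erythroid list was 8778, 10325 and 16742. Of 26 detected granulocyte-monocyte progenitor genes 2 were at least 2-fold lower, Fcgr3 (6.73, 7.79 and 7.99) and Fcnb (7.16, 6.69 and 8.19, second probe -0.80), and the median was -0.27. Elane, neutrophil elastase, differed by -0.96, and Mpo, myeloperoxidase, by 0.15.

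Lists of other mature cells held a single gene at least 2-fold lower or none, where 1.53% of all features were. In the macrophage and dendritic cell list 1 of 20 genes was at least 2-fold lower, Cd14, a coreceptor for bacterial lipopolysaccharide (5.13, 5.62 and 6.70). The median of that list was -0.26, and -0.088 over all 32 members on the array. In the B, T and NK cell list 1 of 9 was, the T cell receptor subunit gene Cd3d (5.07, 5.36 and 6.33), with a median of -0.53, which was -0.052 over all 23 members on the array. In the mast cell, basophil and eosinophil list 1 of 12 was, Csrp3, at 5.37, 5.78 and 7.70 with 2 further probes at -2.54 and -1.63, and the median was -0.11, or -0.021 over all 21 on the array. Of the stroma and endothelium list 8 genes were detected and 0 were 2-fold apart, with a median of -0.10, or 0.03 over all 27 on the array. The part of such cells in any difference between the arrays was not tested.

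Stem cell genes were close between -/- and +/+. Among 23 detected stem cell transcription factor genes 1 was at least 2-fold higher and 0 lower, against 0.413% and 1.53% of all features. That gene was Egr1, and the list's median was 0.10. Meis1 was at 10.95 in -/-, 10.94 in A/- and 10.79 in +/+, Gata2 at 11.30, 11.24 and 11.20, and Lmo2 at 12.81, 12.72 and 12.89. Hoxb5, a homeobox gene of long-term stem cells, was at 6.65, 6.87 and 5.99 (0.66). Of 24 detected surface and adhesion genes 1 was at least 2-fold higher, Itga4, an integrin chain, but a second probe of that gene had -0.88, and its bound was 1.90-fold. The median of this list was -0.02. Megakaryocyte and platelet genes, of which 24 were detected, had 0 genes 2-fold apart and a median of 0.02, with Ppbp, a platelet chemokine, at 5.78, 6.87 and 5.03, Pf4 at 9.86, 10.01 and 9.85 and Mmrn1 at 8.12, 8.69 and 8.76. The lower erythroid median thus stood beside a median near 0 in this sister lineage.

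The immediate early genes, which growth factor signals switch on within minutes, were on the higher side in -/-. Of 14 detected members 12 were higher and 2 lower than in +/+. The median was 0.44, the highest among the 33 lists examined, against 0.02 over all features. At least 2-fold higher were 0.413% of all features and, in this list, only Egr1, at 11.54 in -/-, 11.25 in A/- and 10.30 in +/+ (1.24). Fos was at 10.57, 10.56 and 9.80 (0.77), Ier2 at 7.31, 7.23 and 6.55 (0.76), Zfp36, which destabilises mRNA, at 10.16, 10.22 and 9.49 (0.67) and Dusp1, a MAP kinase phosphatase, at 10.77, 10.58 and 10.11 (0.66). In these genes the A/- array was near -/- and +/+ was the lowest of the 3. Jun was at 7.87, 6.90 and 7.46, highest in -/- and lowest in A/-. Over all 22 members on the array the median was 0.21.

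Among genes that feed back on cytokine signals, Socs2, a STAT5 target that dampens receptor signalling, was at 8.96 in -/-, 8.10 in A/- and 7.42 in +/+, a difference of 1.55. The kinase gene Pim1, another STAT5 target, was at 7.89, 7.45 and 7.07 (0.81), and Cish at 9.53, 9.72 and 9.21 (0.32). Ccnd2, cyclin D2, was lower, at 8.85, 9.26 and 9.37 (-0.52). Of 15 detected genes of this list 1 was at least 2-fold higher, against 0.413% of all features, and the median was 0.12. The RAS-ERK feedback list was at a median of 0.06 over 14 genes, with Dusp6 at -0.24, Etv5 at -0.38 and Ccnd1 at -0.50, and its only 2-fold member was Egr1. The PI3K-AKT and FOXO list had 0 of 27 genes 2-fold apart and lay between -0.59 and 0.47.

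The partners of Cbl were little apart. Of 21 detected genes of the Cbl family and its receptor adaptors 0 were 2-fold apart, and the median was 0.17. Cblb, the closest relative of Cbl, was at 6.80 in -/-, 6.67 in A/- and 6.88 in +/+. Kit was at 12.11, 11.85 and 12.03. The adaptor genes Crk (0.34), Crkl (0.31) and Sh2b1 (0.37) and the phosphatase gene Ptpn11 (0.28) were slightly higher in -/-, and Pik3r1 (-0.36) and Gab1 (-0.23) slightly lower. Among the 50 genes on either side of Cbl in gene order on chromosome 9, 40 were detected, of which 4 were counted as 2-fold lower, against 1.53% of all features and 16 of 555 on the chromosome, and 0 as higher. Cd3d and Nlrx1 differed by -1.26 and -1.06. Abcg4 and Tmem25 were not detected in -/- and had bounds of 2.24-fold and 1.67-fold on the lower side, so 3 of the 4 reach 2-fold with bounds.

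Beyond these lists the largest differences on the higher side among genes detected on both arrays were smaller than those on the lower side. Tmod4, which caps actin filaments, was at 7.32 in -/-, 6.86 in A/- and 5.36 in +/+ (1.97, with 2 further probes at 1.21 and 1.71). The peptide transporter gene Slc15a2 was at 8.08, 6.08 and 6.30 (1.77), high in -/- and alike in the other two. The transcription factor gene Sox6 was at 6.65, 5.75 and 5.19 (1.47), the mitochondrial ND4L at 8.86, 8.02 and 7.59 (1.27) and Paip1, which assists translation, at 7.27, 6.98 and 6.05 (1.23). Pml, of nuclear bodies, was at 10.28, 9.97 and 9.13 (1.14, with 3 further probes between 0.27 and 0.85). Cops8, a subunit of the COP9 signalosome, was at 8.92, 8.90 and 7.77 (1.14). St6galnac3, a sialyltransferase gene, Pou5f2, Rpe, Zdhhc17 and Lonrf1 had differences of 1.17, 1.16, 1.09, 1.03 and 1.02. Samsn1, an adaptor of lymphoid cells, closed these 15 genes at 10.89, 10.80 and 9.88 (1.01). Among genes detected in -/- alone, Cuedc1 was at least 3.58-fold and Casp12 at least 2.01-fold higher than in +/+, although further Casp12 probes had 0.26 and -0.11. Besides Eif2s3y, the other 9 genes chosen by the same rule were between 1.55-fold and 1.90-fold higher at least.

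**Figure D3:**
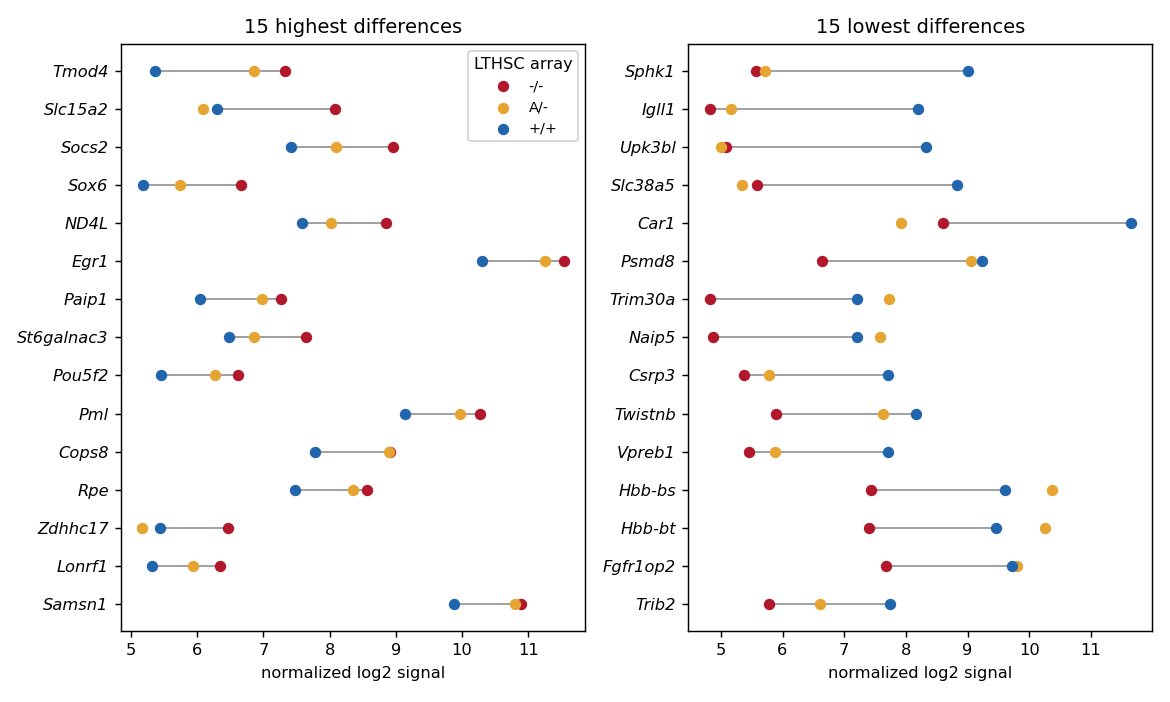
Normalized log2 signal on the 3 LTHSC arrays of the 15 genes with the highest and the 15 with the lowest difference -/- minus +/+ among genes with a symbol that were detected on both arrays. Grey lines join -/- and +/+. A/- lies near -/- in genes such as Sphk1 (5.58, 5.71 and 9.001 in -/-, A/- and +/+) and near +/+ in genes such as Psmd8 (6.64, 9.05 and 9.23).

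A further set of genes was low in -/- LTHSC, while A/- was near +/+ or above it. Psmd8, a subunit of the proteasome cap, was at 6.64 in -/-, 9.05 in A/- and 9.23 in +/+ (-2.59). The other proteasome genes were close. The list of 33 detected genes had 1 member 2-fold lower, against 1.53% of all features, and a median of -0.05. Trim30a, a regulator of innate signalling, was at 4.82, 7.73 and 7.22 (-2.40), and Naip5, a sensor of bacterial flagellin, at 4.87, 7.57 and 7.21 (-2.34). In -/- both were near the lowest detected signal, 4.80. Tm7sf3 was not detected in -/- and was at 7.45 in A/- and 7.67 in +/+, at least 7.33-fold lower in -/-. Snx5, a sorting nexin, was at least 4.73-fold lower (a second probe was at -1.32). Twistnb, now known as a subunit of RNA polymerase I, was at 5.90, 7.63 and 8.17 (-2.27, second probe -2.80). Fgfr1op2 was at 7.68, 9.80 and 9.72 (-2.04), but its second probe was at 0.19. On the arrays outside LTHSC these genes were on the lower side in A/-, with mean differences from +/+ over 5 populations of -3.59 for Psmd8, -1.44 for Tm7sf3, -1.32 for Snx5, -1.28 for Twistnb, -1.04 for Trim30a, -0.84 for Fgfr1op2 and -0.47 for Naip5. Wfdc2 (4.67, 7.66 and 7.49) and BC018473 (4.28, 8.91 and 6.95) had the same pattern in LTHSC, with bounds of 6.47-fold and 4.46-fold on the lower side in -/-. Outside LTHSC the mean difference A/- minus +/+ was -0.55 for Wfdc2 and -0.0014 for BC018473, which was dim on the +/+ arrays there (4.58 to 5.04). The selection of all these genes as a set was made after the values were seen.

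The full set of lower features, whatever their level in A/- LTHSC, was also followed on the other arrays. Of the 189 features at least 2-fold lower in -/- LTHSC, 178 were detected on at least 1 +/+ array outside LTHSC, and 128 of these had a negative mean difference A/- minus +/+ over STHSC, MPP, CMP, GMP and MEP. Their median was -0.54 (quartiles -1.23 and 0.08). Over all 11380 such features the median was 0.01 (quartiles -0.18 and 0.18), with 5420 negative. Of the 51 features higher in -/-, 44 were detected outside LTHSC, with a median of -0.13 and 24 negative. These 10 arrays share no array with the LTHSC pair. Of the 178 features, 38.2% were brightest in MEP, close to the 36.2% of all features, and 29.2% in multipotent progenitors, against 17.5%.

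**Figure D4:**
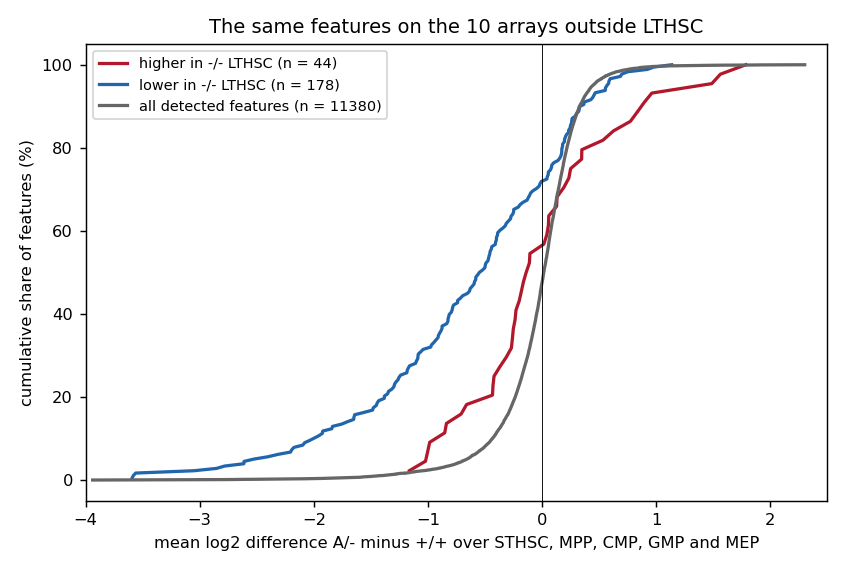
Cumulative share of features by their mean log2 difference A/- minus +/+ over the 5 populations outside LTHSC. Lines stand for the 44 features higher in -/- LTHSC, the 178 lower in -/- LTHSC and all 11380 detected features. The line of the lower features lies left of the others, with a median of -0.54 against 0.01 for all features.

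Housekeeping lists were shifted by small amounts. Over all features the median was 0.02 (quartiles -0.15 and 0.19), with 1.53% at least 2-fold lower and 0.413% at least 2-fold higher. Histone genes had a median of -0.38, with 39 of 47 detected genes on the lower side and 3 at least 2-fold lower, all encoding histone H4: H4c18 (7.26 in -/-, 7.75 in A/- and 8.50 in +/+, with another probe at 7.51, 6.70 and 8.04, a difference of -0.53), H4c9 (7.57, 8.10 and 8.71) and H4c14 (4.87, 4.74 and 5.94). Histone genes are close copies of each other, and their probes may share RNA. Respiratory chain and ATP synthase genes were on the lower side in 56 of 66 genes, with a median of -0.14 and a range from -0.44 to 0.15. Cytoplasmic ribosomal protein genes were at a median of -0.01 over 55 genes, and cell cycle genes at -0.10 over 41, of which 1 was at least 2-fold lower, Ccne1, with a bound of 1.85-fold. The heat shock (0.18), interferon (0.14) and MHC (0.14) lists lay slightly above the median of all features, with 0 genes 2-fold apart. Hspa5, an endoplasmic reticulum chaperone, was at 6.91, 7.01 and 6.10 (0.81), Oas2, an antiviral enzyme, at 7.42, 7.20 and 6.64 (0.78) and H2-T10, a non-classical class I gene, at 10.68, 10.15 and 9.81 (0.87). Further lists had 0 genes 2-fold apart: growth factor receptors (median 0.02 over 17 genes), ubiquitin ligase relatives (0.09 over 26), cyclins and CDK inhibitors (-0.11 over 14), Myc and ribosome biogenesis (-0.05 over 25), glycolysis and hypoxia (0.08 over 26) and mitochondrial apoptosis (0.07 over 17, but -0.05 over all 22 on the array). The sort markers were at 0.08 over 9 genes, of which Fcgr3 was 2-fold lower, and 1 of 8 sex-linked genes, Eif2s3y, was 2-fold higher (median 0.20). The p53 target list was at 0.08, with Cdkn1a, the p21 inhibitor, at 6.68, 7.55 and 6.38.

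**Figure D5:**
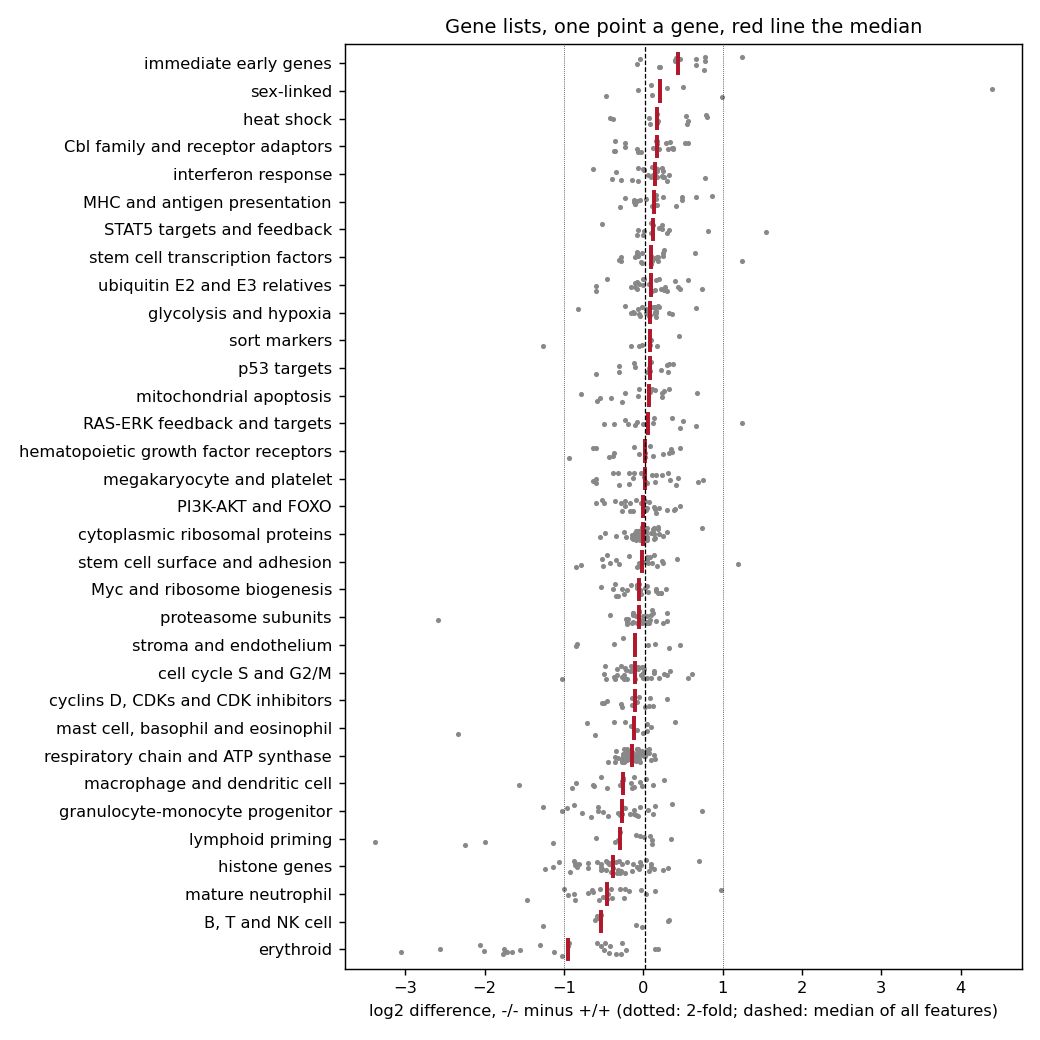
Log2 difference, -/- minus +/+, of the detected members of each gene list, 1 grey point a gene, with the list's median in red. Lists run from the highest median, immediate early genes at 0.44, to the lowest, erythroid genes at -0.94, and the dashed line marks the median of all features at 0.02.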

How the data were processed

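Total RNA was turned into biotin-labelled cRNA, per the labels' protocols. For 45281 probes on 13 arrays the deposited non-normalized table has, per the file headers, 1 linear intensity and 1 detection p-value each. Which scanner software was run, and how it handled background, is not stated in the sources read. The authors' processed intensity values, also deposited, served as an alternative.

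The 3 LTHSC arrays went through neqc of limma 3.58.1 (R 4.3.3) with background inferred from detection p-values, an offset of 16, quantile normalization and log2. Equal distributions remove differences in total RNA, so all differences are relative, and the offset shrinks those of dim probes. The 10 other arrays were processed in the same way by themselves. The procedure was tested on simulated data in which only bright, detected probes were changed, so folds of dim probes were not covered. Platform annotation gave 1 gene symbol for 34885 probes and several for 18, which were left unnamed; 10378 probes were not listed there. Of the named probes 34807 matched the RefSeq table of GRCm38.p6, with 0 symbols changed.

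A gene was represented by its brightest probe in the mean of the LTHSC arrays, giving 29453 features, and 12352 with a detection p-value under 0.01 in -/- or +/+ were analysed. A feature was counted at 2-fold or more where its brighter array was detected. For a probe detected on 1 of the 2 arrays, the bound sets the bright value against the higher of the lowest detected signal and the probe's own value on the dim array. There was 1 array per genotype, so no test was made. Genes for the text were the 15 highest and 15 lowest differences among genes detected on both arrays. The 12 largest bounds each way and members of 33 gene lists were added. Most genes with bounds on the higher side are given only as a range. The comparison, lists and naming rule were chosen with earlier results of these data known. Promoter windows came from RefSeq, with the first listed window of a gene used. There were 9 alternatives, with their effect given at the end.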

Additional observations from a re-analysis of the deposited data

How the results depend on the processing

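No paired analysis was possible because each genotype had 1 array, and for the same reason no array could be left out. The alternatives changed sizes and counts, and the cause was not tested. Against 51 features higher and 189 lower in -/-, neqc on all 13 arrays gave 157 and 301, the authors' processed values 18 and 112, 75th percentile scaling 18 and 117, and an offset of 50 gave 18 and 101. Under neqc on all 13 arrays 50 of the 51 and all 189 were among the calls. With detection on both arrays the lower count was 123. The median of the erythroid list, -0.94, was -1.38 with all 13 arrays, -0.61 with the authors' values, -0.64 with 75th percentile scaling, -0.51 with an offset of 50, -0.59 without a detection filter and -0.53 with detection on both arrays, where fewer genes enter. The lymphocyte list of B, T and NK genes had -0.53 as reported, and -0.27 with the authors' values, -0.25 with an offset of 50 and -0.052 without a filter, and that of the immediate early list, 0.44, was 0.21 without a filter. A value counted as moved beyond 0.22, the SD between probes of 1 gene. Cyclic loess, detection at 0.05 and the mean of all probes moved no count by over 1.5 times and no list median beyond that SD. No 2-fold difference of a named gene changed sign under any of the 9 alternatives. Of 72 values of named genes, 62 moved beyond that SD with all 13 arrays, 54 with an offset of 50, 51 each with the authors' values and 75th percentile scaling, and 12 with the mean of all probes. The median over all features was between 0.00 and 0.02 under each setting. Depth is limiting for dim probes: folds of genes detected on 1 array are bounds.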
